A study of Arabidopsis thaliana with 4 samples.

Results

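Glutathione synthesis and sulfate assimilation were followed in Arabidopsis thaliana through 10 genes, out of 30361 loci on the arrays. The genes were listed by locus code for their role in the pathway, with earlier results of these data known: the sulfate transporter genes SULTR1;1 (AT4G08620) and SULTR1;2 (AT1G78000), the APS reductase genes APR1 (AT4G04610), APR2 (AT1G62180) and APR3 (AT4G21990), the serine acetyltransferase gene SERAT2;1 (AT1G55920), the glutathione synthesis genes GSH1 (AT4G23100) and GSH2 (AT5G27380), the glutathione reductase gene GR1 (AT3G24170) and the gamma-glutamyl cyclotransferase gene GGCT2;1 (AT5G26220). All 10 were on the arrays, and the reference gene table gave each of them the name used here. The study asked which stress-related genes are induced by reactive leaf volatiles. Wild-type plants of the accession Columbia-0 were closed for 30 min in a box holding either the vapour of 10 µM 2E-hexenal, a reactive aldehyde that wounded leaves release, or acetonitrile, its solvent. There were 3 hexenal arrays, which the labels call biological replicates, and 1 acetonitrile array, and each RNA came from at least 6 pooled plants. All 4 samples shared genotype, growth conditions and time in the box, and differed by label in the hexenal alone.

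Plants take up sulfate through membrane transporters and activate it to adenosine phosphosulfate (APS). APS reductase turns APS into sulfite, sulfite reductase makes sulfide, and cysteine synthase joins the sulfide to O-acetylserine, the product of serine acetyltransferase. Cysteine is then built into glutathione by the enzymes encoded by GSH1 and GSH2. Glutathione is the thiol to which plant cells couple reactive aldehydes such as hexenal, it is kept reduced by glutathione reductase, and its breakdown in the cytosol runs through gamma-glutamyl cyclotransferases.

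SERAT2;1 rose 9.50-fold after 30 min of hexenal and was the 1 gene of the 10 called. A call needed at least a 2-fold change and an adjusted p under 0.05 by limma (Benjamini-Hochberg over all loci). Of all loci 273 (0.899%) were called, 263 of them higher (0.866%) and 10 lower (0.0329%). APR3 had the next largest difference at 3.18-fold but was not called, and the other 8 genes differed from the control by 0.46 or less on the log2 scale. The median log2 difference of the 10 genes was 0.074, and that of all loci was -0.032. The 10 genes' median absolute difference of 0.233 compares with 0.265 for all loci.

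The residual spread came from the 3 hexenal arrays, and the single control was assumed to vary like them. The median deposited intensity per array ran from 936 to 982, and the smallest adjusted p over all loci was 0.00608. The number of arrays limits the precision of every value. Of 7 leaf markers, all but CAB2 were bright on every array. CAB2 had a control intensity of 90.1, among the dimmest 25% of loci (under 205), and was at 381, 223 and 441 with hexenal. Its log2 difference of 1.96 ± 0.42 (SE) was not called (adjusted p = 0.188 by limma). Those of the other leaf markers ran from -0.21 (CA1) to 0.036 (PSAF). Of 6 flower markers all were in the dimmest 25% in the control, and their summed deposited intensity was 913 on hexenal array 1 against 455 to 484 on the other arrays.

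**Figure D1:**
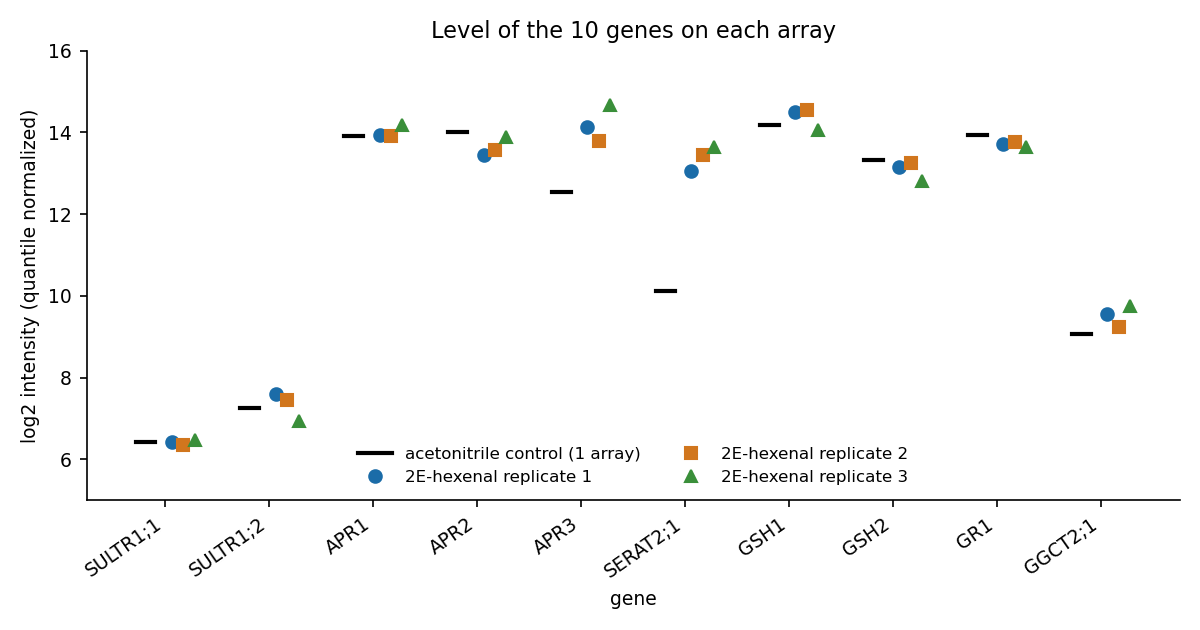
Log2 intensity after quantile normalization (vertical axis) of the 10 genes (horizontal axis), with a bar for the single acetonitrile array and a point for each 2E-hexenal array. SERAT2;1 and APR3 lie clear above the control on all 3 hexenal arrays, from a control level of 10.13 and 12.53.

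SERAT2;1 encodes the serine acetyltransferase of the plastid, which makes O-acetylserine, the carbon skeleton of cysteine. The deposited intensities were 1098 for the control and 8589, 11201 and 12623 for hexenal replicates 1, 2 and 3. All 3 hexenal arrays lay far above the control. After normalization the log2 level went from 10.13 to 13.38 ± 0.29 (SD, n = 3), a difference of 3.25 ± 0.31 (SE; adjusted p = 0.0217 by limma). The 95% interval of that difference ran from 2.47 to 4.02. Its rise ranked 113 among the 30361 loci. The call was lost without hexenal replicate 2, when the difference was 3.22 and the adjusted p 0.157. No locus at all was called by limma in that fit, with a lowest adjusted p of 0.102 and 1547 loci at an unadjusted p under 0.05. It was kept without replicate 1 (difference 3.42, adjusted p = 0.00373), when 1.34% of all loci were called, and without replicate 3 (3.11, adjusted p = 0.0293), when 1.05% were.

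The other serine acetyltransferase genes did not pass the test. Their log2 differences were -0.11 ± 0.24 (SE) for SERAT1;1, -0.025 ± 0.30 for SERAT2;2, the mitochondrial form, 0.099 ± 0.28 for SERAT3;1 and 0.36 ± 0.29 for SERAT3;2. The upper 95% bounds of the 4 genes ran from 0.49 for SERAT1;1 to 1.09 for SERAT3;2, and the lower bound for SERAT2;1 was 2.47. The difference in response between the isoforms was not itself tested.

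The 5 loci with a symbol whose 3 array differences lay nearest to those of SERAT2;1 were SARD1, WRKY53, ZCF37, RABA4C and SIB1. The root mean square distance over the 3 hexenal arrays was 0.153 for SARD1, a regulator of salicylate synthesis, and 0.168 for the transcription factor gene WRKY53. It was 0.192 for ZCF37, 0.194 for the small GTPase gene RABA4C and 0.239 for SIB1, which encodes a sigma factor binding protein. SARD1 differed from the control by 3.17, 3.31 and 3.39 on hexenal arrays 1, 2 and 3, where SERAT2;1 differed by 2.93, 3.31 and 3.50. The likeness describes these 3 arrays, which share 1 control.

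APS reductase catalyses the step often taken to control the flux through the pathway, and the 3 genes for it gave different values. APR3 had a deposited intensity of 5828 on the control array and of 18053, 14390 and 25978 on the hexenal arrays. All 3 hexenal arrays were above the control, and their own range was wide. The log2 level was 12.53 in the control and 14.20 ± 0.45 (SD, n = 3) with hexenal. That is a difference of 1.67 ± 0.39 (SE), which missed the threshold at an adjusted p of 0.229 by limma, with an unadjusted p of 0.00639. Its 95% interval ran from 0.69 to 2.64. With a prior variance that follows the mean level and is robust to outlying loci, APR3 was called (adjusted p = 0.0248 by limma), a setting under which 628 of all loci were called. The adjusted p of APR3 ran from 0.0248 to 0.407 over the 9 alternative settings that gave it a value.

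APR1 had a deposited intensity of 15338 in the control and of 15852, 15548 and 18421 with hexenal. Once normalized, array 2 lay just below the control and arrays 1 and 3 above it, with a log2 difference of 0.085 ± 0.25 (SE) and a 95% interval from -0.54 to 0.71. APR2, which carries most of the APS reductase activity of the plant, was at 16331 in the control and at 11297, 12301 and 15249 with hexenal. All 3 hexenal values of APR2 were below the control, by 0.37 ± 0.28 (SE) on the log2 scale, and it was not called (adjusted p = 0.726 by limma). The 95% interval of APR2 ran from -1.07 to 0.33. The interval of APR3 overlaps narrowly with that of APR1 and not with that of APR2, and the differences between the 3 genes were not tested. The 3 genes have similar sequences, and sharing of probes between them was not tested.

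**Figure D2:**
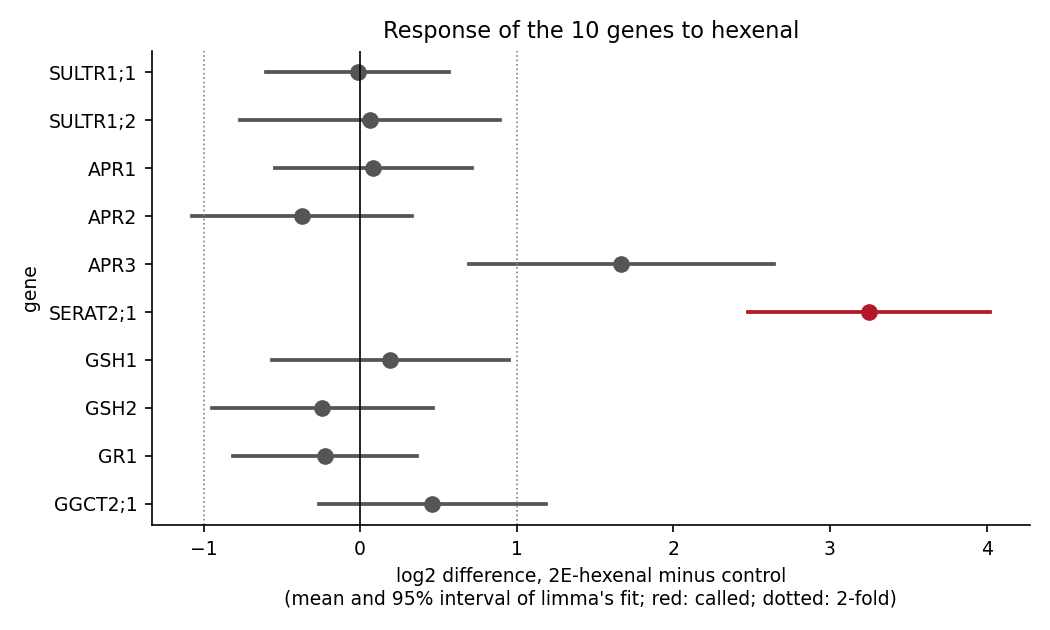
Log2 difference between 2E-hexenal (3 arrays) and acetonitrile (1 array) for each of the 10 genes, with the 95% interval of limma's fit as a line. SERAT2;1, in red, was called at 3.25, APR3 lies at 1.67, and the intervals of the other 8 genes all contain 0.

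GSH1 encodes glutamate-cysteine ligase, the rate-limiting enzyme of glutathione synthesis. Its deposited intensity was 18265 in the control and 23381, 24133 and 17073 with hexenal. Arrays 1 and 2 were above the control and array 3 below it. The log2 difference was 0.19 ± 0.30 (SE), with a 95% interval from -0.56 to 0.95. GSH2, which encodes glutathione synthetase for the final step, was at 10089 in the control and at 9181, 9894 and 7175 with hexenal. All 3 hexenal arrays were below the control, and the difference of -0.24 ± 0.28 (SE) had an interval from -0.95 to 0.46. Neither gene was called (adjusted p = 0.882 and 0.828 by limma). The outer bounds of 0.95 for GSH1 and -0.95 for GSH2 only just stop short of 2-fold. They assume that the single control varies like the hexenal arrays, so a 2-fold change is not excluded. Without replicate 2 the SE was 0.37 for GSH1 and 0.35 for GSH2. With a replicate left out, GSH1 ran from 0.11 (without replicate 2) to 0.36 (without replicate 3) and GSH2 from -0.33 to -0.11 in the same order.

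GR1, the gene of the cytosolic and peroxisomal glutathione reductase, had an SD of only 0.063 over the hexenal arrays, with a deposited intensity of 15492 in the control and of 13663, 14079 and 12663 with hexenal. All 3 hexenal arrays were slightly below the control, at a log2 difference of -0.22 ± 0.23 (SE; adjusted p = 0.806 by limma). GR (AT3G54660), the gene of the reductase of plastids and mitochondria, was at -0.074 ± 0.24 and was not called.

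GGCT2;1 encodes a cytosolic enzyme that splits glutathione into 5-oxoproline and cysteinylglycine. It was at 533 in the control and at 774, 606 and 836 with hexenal, above the control on all 3 arrays. The log2 difference of 0.46 ± 0.29 (SE) was not called (adjusted p = 0.685 by limma), and its 95% interval from -0.27 to 1.19 includes both no change and a 2-fold rise.

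SULTR1;1 and SULTR1;2 encode the high-affinity transporters that take up sulfate in roots. SULTR1;1 was at a deposited intensity of 88.8 in the control and at 82.7, 80.3 and 89.9 with hexenal. SULTR1;2 was at 162 in the control and at 179, 170 and 127 with hexenal. Both had a control intensity in the dimmest 25% of loci, and the control lay within the range of the hexenal arrays for each. The log2 differences were -0.017 ± 0.23 (SE) for SULTR1;1 and 0.063 ± 0.33 for SULTR1;2. Their sign changed with the scaling: SULTR1;1 was at 0.019 with cyclic loess, and SULTR1;2 at -0.049 as deposited and -0.080 with median centring. No detection limit is known for these values, so a low signal cannot be told from background.

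Root markers were uneven on the same arrays. Of 10 root markers, the root hair genes RHD6 and EXPA18 and the transporter genes IRT1 and NRT2.1 were also in the dimmest 25% of control values. The other 6 were not, with control intensities of 225 for COBL9, 261 for EXPA7, 270 for WOX5, 335 for PHT1;1, 960 for LRX1 and 4930 for SCR, which is also active in shoots. None of the 10 was listed at 0, but no locus was, as the lowest value on any array was 41.3. The summed deposited intensity of the 10 markers was 7383 in the control and 5883 to 7448 with hexenal. Most of each sum was SCR, at 4930 in the control and 5879, 5511 and 3716 on hexenal arrays 1, 2 and 3. The median log2 difference of the 10 markers was -0.45, -0.14 and -0.16 on these arrays. For all loci it was -0.017, -0.029 and -0.036. No root marker was called, where 0.899% of all loci were. Below the control on all 3 hexenal arrays lay 6 of the 10, where 32.4% of all loci did. The labels speak of plants and do not say whether roots were in the extracted tissue. In such bulk RNA, fewer root cells and less RNA per cell cannot be told apart, and the part of either in the low SULTR1;1 and SULTR1;2 values was not tested.

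Direction was uneven over the 10 genes. The hexenal arrays lay all above the control for 3 of them (SERAT2;1, APR3 and GGCT2;1) and all below it for another 3 (GSH2, GR1 and APR2). Over all loci 26.1% lay wholly above and 32.4% wholly below. The 2 genes at least 2-fold higher, SERAT2;1 and APR3, compare with 4.27% of all loci, and none of the 10 was at least 2-fold lower, as 2.95% of all loci were. The SD over the hexenal arrays ran from 0.059 for SULTR1;1 to 0.446 for APR3, with a median of 0.241 beside 0.236 for all loci.

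The wider pathway was covered by 53 further loci, of which 1 was called higher and none lower. Of all loci 0.866% were called higher and 0.0329% lower. The called gene was LSU3, and the list's median log2 difference was 0.021. That median was near 0 and its sign was not stable: it was 0.0014, -0.036 and 0.089 without hexenal replicates 1, 2 and 3. At an unadjusted p under 0.05 there were 7 of the 53, where 8.75% of all loci were so. The list was set by role, with earlier results of these data known. In it 2 loci, AT1G04770 and AT1G44790, have no gene name in the reference and are given by code alone. At least 2-fold higher were 7 loci, 5 of them in the sulfur limitation list and the other 2 being the phytochelatin synthase genes, and none was 2-fold lower. Over all loci 4.27% were at least 2-fold higher and 2.95% at least 2-fold lower.

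**Figure D3:**
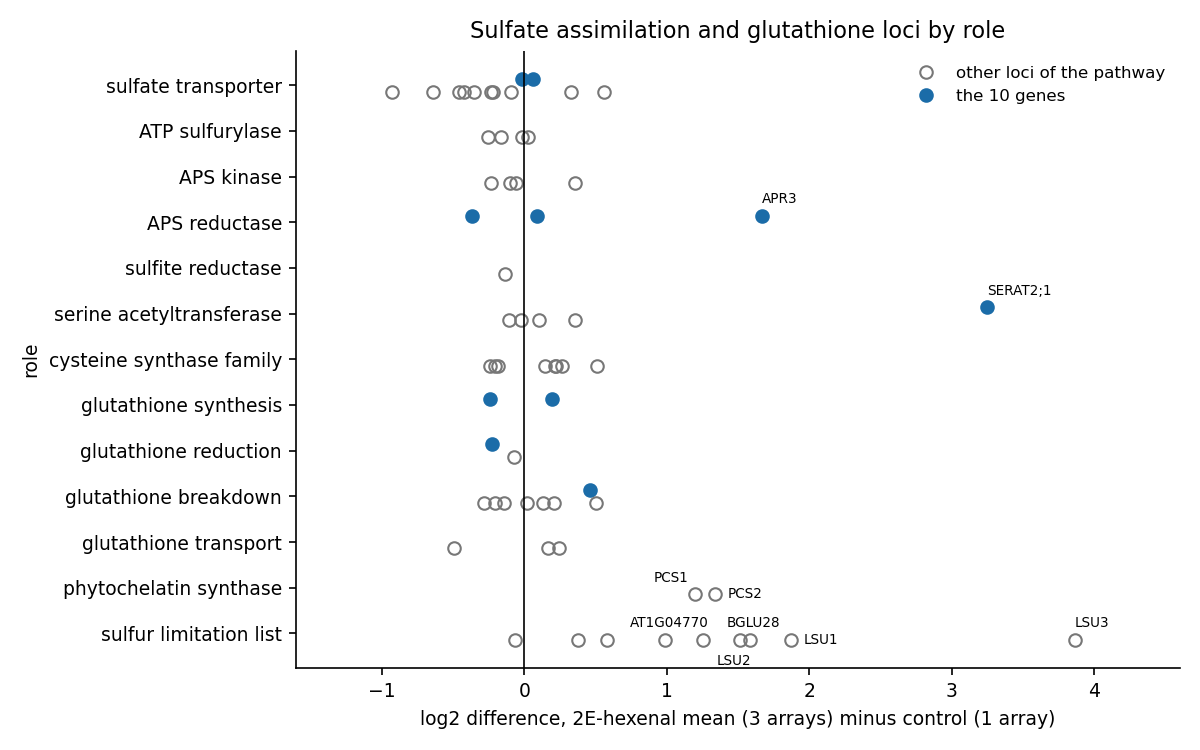
Log2 difference between the 2E-hexenal mean and the control (horizontal axis) for the 10 genes, filled, and 53 further loci, open, by role (vertical axis). Most roles lie around 0, and the named points, at 2-fold or more, are SERAT2;1, APR3, both phytochelatin synthase genes and 5 loci of the sulfur limitation list.

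The sulfur limitation list holds genes known for rising when sulfate is short, and the regulator EIL3 (SLIM1). Of its loci AT1G04770 has no name in the reference. LSU3, a small gene of the family named for its response to low sulfur, had a deposited intensity of 275 in the control and of 3392, 3379 and 4992 with hexenal. It rose by 3.86 ± 0.33 (SE) on the log2 scale, or 14.6-fold, with an adjusted p of 0.0170 by limma. The 3 hexenal arrays lay far above the control, with array 3 the highest and an SD of 0.338 over them. As for SERAT2;1, the call was lost without hexenal replicate 2 (difference 3.95, adjusted p = 0.130) and kept without replicate 1 (3.93) or replicate 3 (3.69).

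The other LSU genes were higher on every hexenal array but not called. LSU1, the neighbour of LSU3 on the chromosome, was at 266 in the control and at 537, 820 and 1822 with hexenal, a log2 difference of 1.87 ± 0.68 (SE; adjusted p = 0.514 by limma). LSU2 was at 1921 in the control and at 4195, 4246 and 9999 with hexenal, a difference of 1.51 ± 0.56 (adjusted p = 0.526). LSU4, the neighbour of LSU2, was at 299 in the control and at 672, 441 and 635 with hexenal, a difference of 0.98 ± 0.32 (adjusted p = 0.439). The family's control values lay below all its hexenal values, gene by gene, but for LSU1 and LSU2 array 3 stood well apart from the other hexenal arrays. These genes are short and alike, and sharing of probes was not tested.

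The remaining members of that list were not called. AT1G04770 was at 1.25 ± 0.61 (SE), and SDI1, a gene induced by sulfur deficiency, was at 0.58 ± 0.32. EIL3, which encodes the transcription factor of the sulfur limitation response, was at 0.38 ± 0.28, and SHM7, a serine hydroxymethyltransferase gene, at -0.066 ± 0.27. BGLU28, a beta-glucosidase gene, was at 112 in the control and at 627, 565 and 96.0 with hexenal. Arrays 1 and 2 of BGLU28 were high and array 3 was below the control, giving 1.58 ± 1.10 (adjusted p = 0.705 by limma). Without hexenal replicate 3 BGLU28 was at 2.48 and was called (adjusted p = 0.0344 by limma), when 1.05% of all loci were. The list was chosen with earlier results of these data known, so its counts are a description only. Of the 9 loci in the list, 7 lay above the control on all 3 hexenal arrays and none wholly below, beside 26.1% and 32.4% of all loci, and the median difference was 1.25. That median ran from 1.18 to 1.29 under the other scalings and was 0.92 without hexenal replicate 3.

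Phytochelatin synthases make metal-binding peptides from glutathione. PCS1 had a deposited intensity of 5677 in the control and of 14942, 14222 and 11016 with hexenal. All 3 hexenal arrays were above the control, by 1.20 ± 0.28 (SE) on the log2 scale, but PCS1 was not called (adjusted p = 0.232 by limma). It was called at an adjusted p of 0.0229 with the prior variance that follows the mean level and is robust to outlying loci. PCS2 was at 112 in the control, in the dimmest 25% of loci, and at 334, 356 and 164 with hexenal, a difference of 1.34 ± 0.52 (adjusted p = 0.559).

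**Figure D4:**
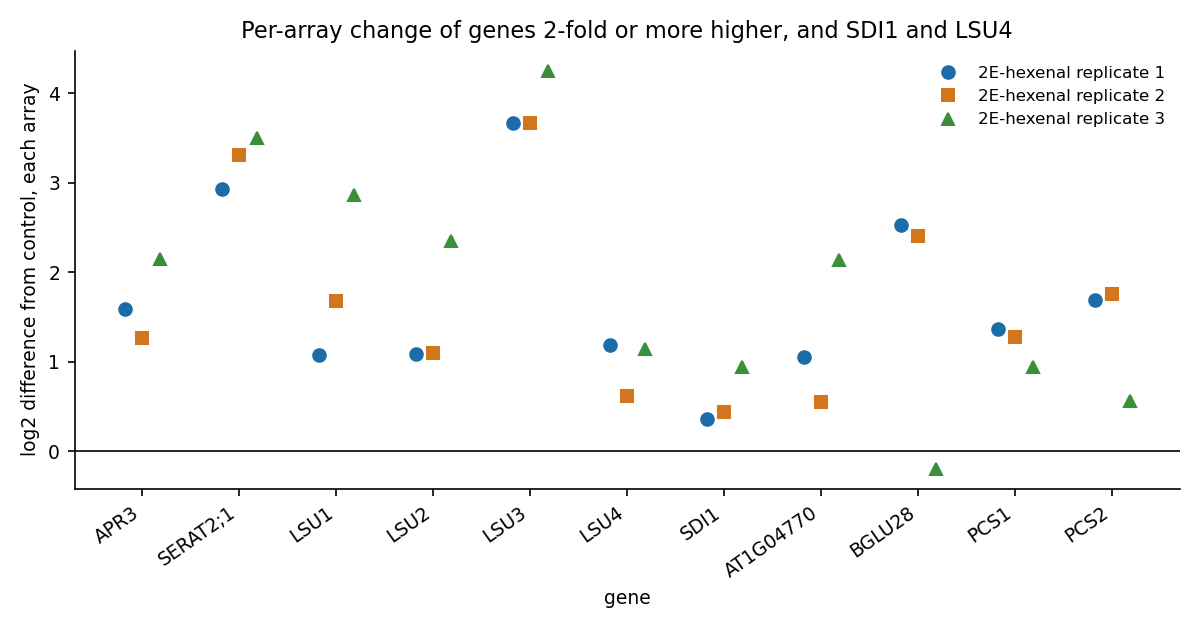
Log2 difference from the control (vertical axis) on each of the 3 2E-hexenal arrays for APR3, SERAT2;1, 7 loci of the sulfur limitation list and both phytochelatin synthase genes. Array 3, the triangles, is highest for APR3, SERAT2;1, LSU1, LSU2, LSU3, SDI1 and AT1G04770 and lowest for BGLU28, PCS1 and PCS2.

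The hexenal arrays differed among themselves in these genes. Array 3 was the highest of the hexenal arrays for 6 of the 9 loci of the sulfur limitation list and for 6 of the 10 genes, where it was so for 36.5% of all loci. For the 53 pathway loci together, which include that list, it was the highest for 16 (30.2%). APR3 was 2.15 above the control on array 3 and 1.60 and 1.26 above it on arrays 1 and 2. LSU1 was 2.86 above on array 3 and 1.08 and 1.69 above on the others. In contrast, array 3 gave the lowest value of GSH1, GSH2, GR1 and SULTR1;2. No label sets array 3 apart.

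The enzymes around the steps from sulfate to cysteine, apart from APR3 and SERAT2;1, gave mean differences short of 2-fold, some with wide intervals. The 4 ATP sulfurylase genes, which activate sulfate, ran from -0.26 (APS2) to 0.023 (APS4) on the log2 scale. SIR, the single sulfite reductase gene, had an SD of 0.016 over the hexenal arrays, with a deposited intensity of 24545 in the control and of 21996, 22684 and 22202 with hexenal. Its difference was -0.14 ± 0.23 (SE). The 4 APS kinase genes, which divert APS to sulfation reactions, ran from -0.24 (APK4) to 0.36 (APK2). The 8 genes of the cysteine synthase family had a median of 0.18, which was 0.035 without hexenal replicate 1 and 0.29 without replicate 3. DES1, a cysteine desulfhydrase gene, was the highest of them at 0.51 ± 0.32, and OASA1, the main cytosolic cysteine synthase gene, was at 0.22 ± 0.26. No gene of these 4 groups was called.

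Sulfate transporter genes other than the root pair were mostly below the control. Of 10 such genes 5 were below it on all 3 hexenal arrays and 1, SULTR2;2, was above it on all 3, where 32.4% and 26.1% of all loci were so. None was called, and the median was -0.30, or -0.24 to -0.30 under the other scalings, and -0.17 without hexenal replicate 3. SULTR3;5, a partner of root-to-shoot sulfate transport, was at 2695 in the control and at 1561, 1199 and 1631 with hexenal. This is a difference of -0.93 ± 0.29 (SE; adjusted p = 0.416 by limma). SULTR3;3 was at -0.64 ± 0.26 (adjusted p = 0.584), and SULTR4;1, a vacuolar sulfate exporter gene, at -0.43 ± 0.24.

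Genes of glutathione breakdown and transport were not called either. The 7 further breakdown loci ran from -0.28 for GGT4, a vacuolar gamma-glutamyl transferase gene, to 0.51 ± 0.30 (SE) for GGT1, the apoplastic one. GGT1 was at 6841 in the control and at 9482, 8307 and 11991 with hexenal, above the control on all 3 arrays. GGCT2;2, the nearest relative of GGCT2;1 in the list by name, was at 0.13 ± 0.23, and OXP1, which encodes the 5-oxoprolinase that recycles the product of these enzymes, was at 0.021 ± 0.26. The 3 CLT genes, for transporters of glutathione and its precursor out of plastids, ran from -0.50 (CLT2) to 0.25 (CLT3).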

How the data were processed

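The values are 1 linear intensity per locus and array, as deposited by the authors, from one-colour NimbleGen arrays with Cy3-labelled cDNA, per the labels' protocols. For background correction, normalization and the summary over probes, the method is not given in the sources used here. Log2 values of all 30361 loci were quantile normalized and fitted in R 4.3.3 with limma 3.58.1 (lmFit, eBayes without trend). P values are two-sided, with Benjamini-Hochberg adjustment over all loci, and a call needed an adjusted p under 0.05 and a 2-fold change. The test was run on simulated data in which the control and the hexenal arrays were given the same spread at each locus. That spread was the SD of the hexenal arrays drawn towards the median SD over loci, so it was more even than in the data. Such data cannot check the assumption that the single control varies like the hexenal arrays. Precision is limited by the number of arrays.

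The genes and lists were chosen with earlier results of these data known. Named are the 10 genes, called loci of the 53-locus pathway list, the 8 largest uncalled differences in it where the 3 hexenal arrays agreed in sign, other list loci by value, and the 5 loci most like the largest riser. Names came from RefSeq (assembly TAIR10.1), which named 51 of the 53 loci. Promoter motifs, planned at the outset, and probe sequences were not analysed here. The other settings were no normalization, cyclic loess, median centring, the dimmest 25% of loci left out, eBayes with trend and robust, 16 added before log2, no fold threshold, and omission of each hexenal replicate. Figures were drawn with matplotlib 3.10.9.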

Additional observations from a re-analysis of the deposited data

How the results depend on the processing

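The number of called genes among the 10 was 1, and it was 2 with eBayes with trend and robust. It ran from 0 to 1 when a hexenal replicate was left out. For the 53 pathway loci the number was 1, then 2 with trend and robust, and from 0 to 2 with a replicate left out. For all loci it was 273, then 628 with trend and robust, and from 0 to 406 with a replicate left out. The 0 in each case is the fit without hexenal replicate 2, where the residual spread came from replicates 1 and 3 (limma, smallest adjusted p 0.102, 1547 loci at an unadjusted p under 0.05). The median of the 10 genes was -0.00029 with median centring and between 0.031 and 0.139 under the other settings. Of the 10 genes, SULTR1;2 changed sign as deposited (-0.049), with median centring (-0.080) and without replicate 1 (-0.073), and SULTR1;1 with cyclic loess (0.019) and without replicate 2 (0.015). With a replicate left out SULTR1;1 ran from -0.043 to 0.015 and SULTR1;2 from -0.073 to 0.254. The cause was not tested. With the dimmest 25% of loci left out these 2 genes were not fitted. No paired analysis was possible because the control is a single array with no replicate number. All values rest on that 1 control, whose own spread is unknown, and background in the dim loci cannot be separated from signal.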
